A study of Mus musculus with 12 samples.

Results

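The mitochondrial ribosomal protein genes were the protein-coding rows of the deposited table whose symbol starts with Mrpl or Mrps followed by a digit. There were 78 such rows among 21821 protein-coding rows and 55322 rows in all. Of the 78, 51 encode proteins of the large subunit and 26 encode proteins of the small subunit. The remaining one, Mrps36, keeps its ribosomal name but encodes a subunit of the 2-oxoglutarate dehydrogenase complex. Of the ribosomal proteins, 46 have a counterpart in the bacterial ribosome and 31 are specific to mitochondria.

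RNA was sequenced from conventional dendritic cells (cDCs) of mouse spleen in 4 groups of 3 libraries, L-cDC1 and M-cDC1 for one subset and L-cDC2 with M-cDC2 for the other. cDC1s and cDC2s are the main subsets of these antigen-presenting cells, and the series title speaks of cDCs of lymphoid origin. All groups carry the genotype label Il7r-cre; Rosa26-lsl-tdTomato, in which a Cre recombinase driven from the Il7r locus switches on a red reporter, whereas the growth protocol describes C57BL/6J animals as wild type, aged 7 to 8 weeks. The labels neither spell out L and M nor say which libraries were sorted by the reporter. Nothing in them assigns a replicate to its own animal. The p-values therefore rest on variation among these libraries, part or all of which may be technical.

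Mitochondria keep a ribosome of their own, which makes the core membrane subunits of the respiratory chain and of ATP synthase from messages of the mitochondrial genome. Its RNAs come from that genome, but its proteins are encoded in the nucleus, made in the cytosol and imported, so the genes below must be expressed together with the import machinery for a mitoribosome to be built. In dendritic cells, mitochondrial respiration is known as an energy source of the resting state. The table lists 0 rows of chromosome M, so the partner RNAs were not analysed here.

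The promoters of these genes are described first, because nuclear genes for mitochondria are known for sites of the factors NRF1, GABP (an ETS factor) and YY1 near their starts. RefSeq promoter windows of build GRCm38.p6, from 250 bases before to 50 after a start, were found for 69 of the 78 members, in 75 windows. The ETS letters CCGGAAG, on either strand, lay in 34.7% of these windows and in 19.5% of the 10493 windows of protein-coding genes tested. The NRF1 core TGCGCA, which reads the same on both strands, lay in 29.3% against 14.5%. The YY1 letters AAGATGGC, on either strand, lay in 16% against 4.88%. The GC box GGGCGG, on either strand, was in 52.0% of the members' windows against 62.6%, and the TATA box TATAAA, on either strand, in 6.67% against 6.93%. ETS, NRF1 core and YY1 letters thus stood in a larger share of these windows than in the background, and GC boxes in a smaller one. A match of letters is a description and not a bound site.

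The stretches that follow are the bases just before the start of 4 members that come up below, 3 of them higher in cDC1 and one, Mrpl45, lower, written 5′ to 3′ on the strand of the gene. Capitals mark the ETS letters (CCGGAAG or its reverse complement) and the NRF1 core. Coordinates are of GRCm38.p6, chr13:99344726-99344785 for Mrps27, chr11:58171604-58171663 for Mrpl22, chr6:125192105-125192199 for Mrpl51 and chr11:97315656-97315715 for Mrpl45, all on the plus strand.
Mrps27: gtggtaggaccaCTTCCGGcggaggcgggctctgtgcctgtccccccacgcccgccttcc
Mrpl22: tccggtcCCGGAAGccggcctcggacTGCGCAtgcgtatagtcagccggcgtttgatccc
Mrpl51: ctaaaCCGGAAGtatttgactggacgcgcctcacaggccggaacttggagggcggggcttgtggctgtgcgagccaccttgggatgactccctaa
Mrpl45: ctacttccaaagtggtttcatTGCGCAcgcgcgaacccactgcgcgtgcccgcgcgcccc
The Mrps27 and Mrpl51 stretches hold ETS letters, the Mrpl22 stretch holds both, and the Mrpl45 stretch holds the NRF1 core alone. The stretches are 60 bases long, except 95 for Mrpl51, whose ETS letters begin 90 bases before the start. These 4 members do not show that the letters go with the direction. Mrpl33, called lower in both M and L as deposited, has ETS letters in its window, and Mrpl42, which differed most, has none. Mrps7, called higher in both M and L, has the NRF1 core in its window but no ETS letters.

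The YY1 letters were also described by their place. They occurred in 12 members, in 8 of them after the start and in 4 before it. In all 8 of the first kind they ran in the direction of the gene and began between base 12 and base 37 after the start. Windows with the letters anywhere after the start, in the direction of the gene, made up 10.7% of the members' windows and 2.3% of the background's. This place was read from the members first, so the shares are a description. The stretches of these 8 members are shown so that they can be set against each other, with the letters in capitals.
Mrpl42: attgaagcAAGATGGCgagcgcgc
Mrps27: tgcgctccAAGATGGCggctccca
Mrps7: cagcggccAAGATGGCtgcccccg
Mrps24: gccggcccAAGATGGCgtggtc
Mrps18a: tgcgttccAAGATGGCggccctca
Mrpl37: cacgggcaAAGATGGCggcgtcca
Mrpl35: caggctgcAAGATGGCggcttcca
Mrpl49: gaggcgccAAGATGGCagcagcgg
Their coordinates in GRCm38.p6 are chr10:95501907-95501930 (minus strand) for Mrpl42, chr13:99344792-99344815 (plus) for Mrps27, chr11:115604150-115604173 (plus) for Mrps7, chr11:5707652-5707673 (minus) for Mrps24, chr17:46111007-46111030 (plus) for Mrps18a, chr4:107066825-107066848 (minus) for Mrpl37, chr6:71823746-71823769 (minus) for Mrpl35 and chr19:6057724-6057747 (minus) for Mrpl49. Mrpl42, Mrps27 and Mrps7 of this set were called higher in cDC1 in both M and L, as described below. Mrps24 was called higher in M alone, and Mrps18a, Mrpl37, Mrpl35 and Mrpl49 were called in neither.

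Before the results, the libraries were checked. Reads recovered from the table ran from 15879864 to 24498235 per library. The 10 cDC1 markers summed to between 2137 and 2308 FPKM (read counts divided by gene length and library depth) in the cDC1 libraries and between 169 and 181 in the cDC2 libraries. The 10 cDC2 markers summed to between 14.9 and 17.8 FPKM in cDC1 and between 885 and 1097 in cDC2, so the subset labels held. B cell markers in M-cDC1 summed to 347 to 391 FPKM and those in M-cDC2 to 412 to 454. Those in L-cDC1 summed to 628 to 1005 FPKM and those in L-cDC2 to 995 to 3477, the highest in L-cDC2 replicate 2. Of the 16 B cell markers, 7 had a mean above 1 FPKM in M-cDC1, 8 in M-cDC2 and 14 in each L group. T and NK cell markers reached at most 1.12 FPKM in the M-cDC1 libraries and at most 2.69 in those of M-cDC2, against 11.8 to 22.9 in L-cDC1 and 44.9 to 116 in L-cDC2, with Cd3g at 0 in every M library. Erythroid and platelet markers summed to 22.0 to 50.5 FPKM in the cDC1 libraries and 0.134 to 6.17 in the cDC2 libraries. Monocyte and macrophage markers summed to 1452 to 1670 FPKM in M-cDC2, 734 to 774 in M-cDC1, 697 to 858 in L-cDC2 and 611 to 661 in L-cDC1. The part of these other cells' RNA in the differences below was not tested. Without L-cDC2 replicate 2, 13 members were called higher and 0 lower in cDC1 in L. No share of all genes is given for that fit, so this count is not read as a result on the members. In bulk samples, fewer cells of a type and less RNA per cell cannot be told apart.

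Mitochondrial ribosomal protein genes were expressed in every group. A total of 77 members reached at least 1 FPKM in at least 3 libraries and were tested. Their mean levels over 12 libraries ran from 2.29 to 91.8 FPKM with a median of 16.9 FPKM, and 65 of them lay above the median level of all genes tested, 5.86 FPKM. The median level was 19.2 FPKM for large-subunit members and 12.8 FPKM for small-subunit members. Mrps21, a small-subunit protein, had the highest mean level at 91.8 ± 12.6 FPKM (SD, n = 12). Mrpl54 followed at 78.4 ± 19.0 FPKM and Mrpl36, the counterpart of the bacterial L36, at 63.2 ± 15.9 FPKM. These 3 overlapped in their ranges over libraries, and the order holds for the mean of all groups only. Mrpl18, next at 62.9 FPKM, had a higher mean than Mrpl36 in both L groups. The lowest tested members were Mrps22 at 2.29 ± 0.535 FPKM, Mrpl47 at 3.07 ± 0.599 FPKM and Mrps35 at 3.86 ± 0.508 FPKM.

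**Figure D1:**
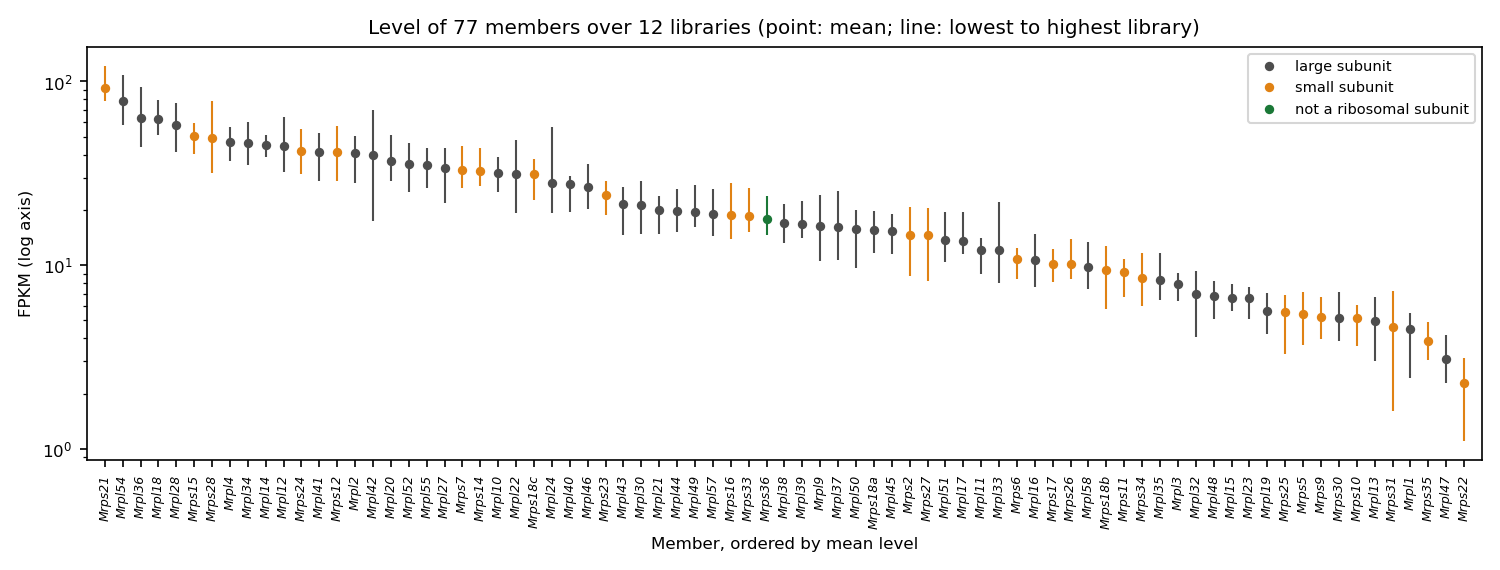
Mean level (point) and lowest to highest library (line) of the 77 tested members over 12 libraries, in FPKM on a log axis, ordered by mean and coloured by subunit. Levels span from 2.29 to 91.8 FPKM and most neighbours in the order overlap.

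Order among members depended on the gene length used. The deposited length counts every annotated exon of a gene, and over the members it was a median of 1.36 times the longest coding transcript of the GENCODE M21 annotation, with a maximum of 15.3 times for Mrpl33. The median ratio was 1.33 over protein-coding genes tested. With levels rescaled to that transcript, an alternative chosen after seeing the data, the median member stood at 29.1 FPKM and Mrps21 moved from the highest to the third place.

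Mrpl53, a large-subunit member, was the one member that was not tested. It was listed between 0 and 0.392 FPKM, which is 0 to 6 reads per library, and at 0 in 3 libraries, where 3 reads would have been worth 0.155 to 0.239 FPKM over all libraries. Of its exon length, 88.0% is shared with Gm42688 on the same strand or with the antisense gene Ccdc142os, so reads that fall there may not have been assigned to it. Exons of 31 of the 77 tested members (40.3%) overlap those of another gene, as do those of 36.5% of protein-coding genes tested. The kits do not mark strand, so reads of a member and of an antisense partner cannot be told apart, which bears on Mrps18b (30.5% of its exon length under Gm16279) and Mrps27 (24.2% under 6430562O15Rik).

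The comparison of cDC1 with cDC2 was made within M and within L, which share no library. In M, mitochondrial ribosomal protein genes were more often higher in cDC1 than in cDC2. The fit called 23 of 77 members higher (29.9%) and 2 lower (2.60%), where 12.7% of all genes tested were called higher and 25.4% lower, 38.1% in all (limma, Benjamini-Hochberg adjusted p under 0.05). The members' median log2 difference was 0.19, and that of all genes was -0.18. In L the fit called 16 members higher and 2 lower, where 12.9% of all genes were called higher and 26.6% lower, 39.5% in all, and the members' median was 0.14 against -0.19. The groups did not overlap, with cDC1 higher, for 29 members in M (16.9% of all genes) and 23 in L (16% of all genes). They did not overlap, with cDC1 lower, for 3 members in M (34.2% of all genes) and 6 in L (32.7% of all genes). As deposited and with all libraries, the members' medians and their share of higher calls stood above those of all genes in both comparisons. Among genes at 5 FPKM or more in at least 3 libraries, 31.1% of members and 17.7% of all genes were called higher in M. In L these shares were 21.6% and 16.9%, which lie closer together. In L the share rested on single libraries, as given next.

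Scaling bears on these counts, since the deposited values leave the median of all genes at about -0.2. Among all calls, 33.2% in M and 32.7% in L were higher in cDC1 as deposited, 48.9% and 48.7% after median-of-ratios scaling, 53.4% and 52.6% after quantile normalization, and 47.6% and 47.9% with limma-voom on the recovered reads. Members called higher then numbered 32 in M and 29 in L after median-of-ratios scaling, 33 and 25 after quantile normalization, and 29 and 28 with limma-voom, with 0 members called lower under these 3. Of all genes, 17.5% in M and 18.1% in L were called higher after median-of-ratios scaling, 18.1% and 18.7% after quantile normalization, and 17.0% and 18.1% with limma-voom. In the same order, 18.3%, 15.8% and 18.7% of all genes were called lower in M, and 19.1%, 16.9% and 19.7% in L. In M, 15 members (19.5%) were called higher without M-cDC1 replicate 2, against 10.7% of all genes. In L, 10 members (13.0%) were called higher without L-cDC1 replicate 3, against 11.9% of all genes, and 8 (10.4%) without L-cDC2 replicate 1, against 11.5%. The higher share of calls among members in L was therefore lost without L-cDC2 replicate 1, while the members' median without it was 0.13 and that of all genes -0.20.

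**Figure D2:**
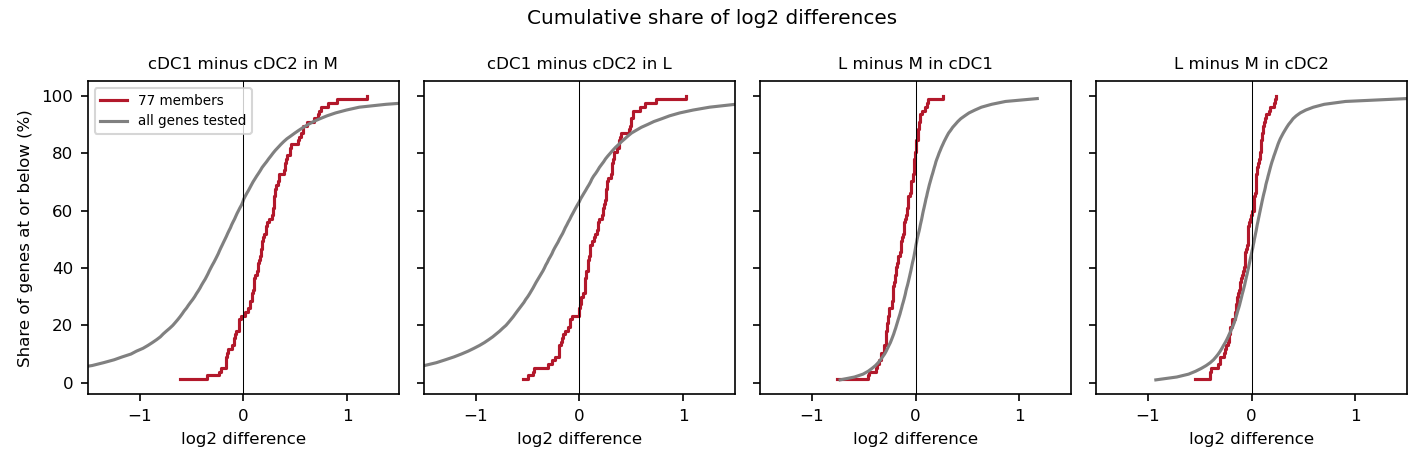
Cumulative share (%) of log2 differences on the log2(FPKM + 1) scale, for the 77 members (red) and the genes tested (grey), in 4 comparisons. In both cDC1 minus cDC2 panels the members' median lies above 0 and that of all genes below 0, and in L minus M in cDC1 the members' median is -0.13.

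Mrpl42, a mitochondria-specific protein of the large subunit (chromosome 10, 95316667 to 95337802, minus strand, as the deposited table gives it, without naming a build), differed most. Its level was 55.3, 69.7 and 54.7 FPKM in M-cDC1 and 21.9, 27.1 and 27.6 FPKM in M-cDC2. It was 45.3, 51.0 and 50.4 FPKM in L-cDC1 and 17.4, 29.2 and 25.2 FPKM in L-cDC2. All 6 cDC1 libraries lay above all 6 cDC2 libraries. The ratio of mean FPKM was 2.34 in M (log2 difference 1.2 ± 0.17 SE, limma adjusted p = 7.07e-05) and 2.04 in L (1.03 ± 0.17, limma adjusted p = 0.00026).

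Mrps28, a small-subunit protein with a bacterial counterpart (chromosome 3, 8867206 to 8988978, minus strand), was at 65.2, 71.1 and 78.4 FPKM in M-cDC1, against 42.7, 35.8 and 35.1 FPKM in M-cDC2. In L-cDC1 it was at 49.4, 49.9 and 56.2 FPKM and in L-cDC2 at 42.1, 31.6 and 35.0 FPKM. Again no cDC2 library reached a cDC1 library, and the 3 M-cDC1 libraries were the highest of all. The log2 difference was 0.90 ± 0.13 in M (limma adjusted p = 6.4e-05) and 0.51 ± 0.13 in L (limma adjusted p = 0.00524).

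Mrpl12 encodes the large-subunit stalk protein, also known to bind the mitochondrial RNA polymerase (chromosome 11, 120375439 to 120379891, plus strand). Its level was 57.7, 64.5 and 55.5 FPKM in M-cDC1 and 34.6, 34.7 and 34.7 FPKM in M-cDC2. In L-cDC1 it was 46.8, 49.9 and 55.9 FPKM, and in L-cDC2 32.1, 33.4 and 35.3 FPKM. The cDC2 libraries lay close together and all below the cDC1 libraries. The log2 difference was 0.75 ± 0.10 in M (limma adjusted p = 4.22e-05) and 0.58 ± 0.10 in L (limma adjusted p = 0.000388). The other stalk proteins gave smaller values. Mrpl10, to which the stalk is anchored, had a log2 difference of 0.09 ± 0.15 in M against 0.10 ± 0.15 in L. Mrpl11, at the stalk base, had 0.10 ± 0.14 and 0.15 ± 0.14, and neither was called. The difference between these members and Mrpl12 was not tested.

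Mrps27, a small-subunit protein of the pentatricopeptide repeat family known to bind mitochondrial RNA (chromosome 13, 99481294 to 99552070, plus strand), carries the ETS and YY1 letters printed above. It was at 20.3, 18.5 and 20.6 FPKM in M-cDC1, 15.7, 8.15 and 9.76 FPKM in M-cDC2, 18.3, 16 and 16.4 FPKM in L-cDC1 and 10.2, 13.4 and 8.45 FPKM in L-cDC2. M-cDC2 replicate 1 was the one cDC2 library close to the cDC1 libraries, and the subsets did not overlap. The log2 difference was 0.81 ± 0.20 in M (limma adjusted p = 0.00607) and 0.63 ± 0.20 in L (limma adjusted p = 0.0236), where the call ended in 4 of 20 alternatives.

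Mrps18b is one of 3 paralogues of the bacterial protein S18. It was at 12.7, 12.1 and 12.4 FPKM in M-cDC1, 7.68, 8.65 and 7.93 FPKM in M-cDC2, 10.1, 11.5 and 11.7 FPKM in L-cDC1 and 5.87, 7.14 and 5.78 FPKM in L-cDC2. The subsets were apart in every library, and the log2 difference was 0.56 ± 0.13 in M (limma adjusted p = 0.00322) and 0.74 ± 0.13 in L (limma adjusted p = 0.000386). The other paralogues were not called. Mrps18a, which sits in the large subunit, had 0.08 ± 0.17 in M and 0.17 ± 0.17 in L. Mrps18c, the S18 counterpart of the small subunit, had -0.09 ± 0.13 in M and -0.16 ± 0.13 in L, with a positive sign after median-of-ratios scaling in both. Whether the paralogues differ from each other was not tested.

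**Figure D3:**
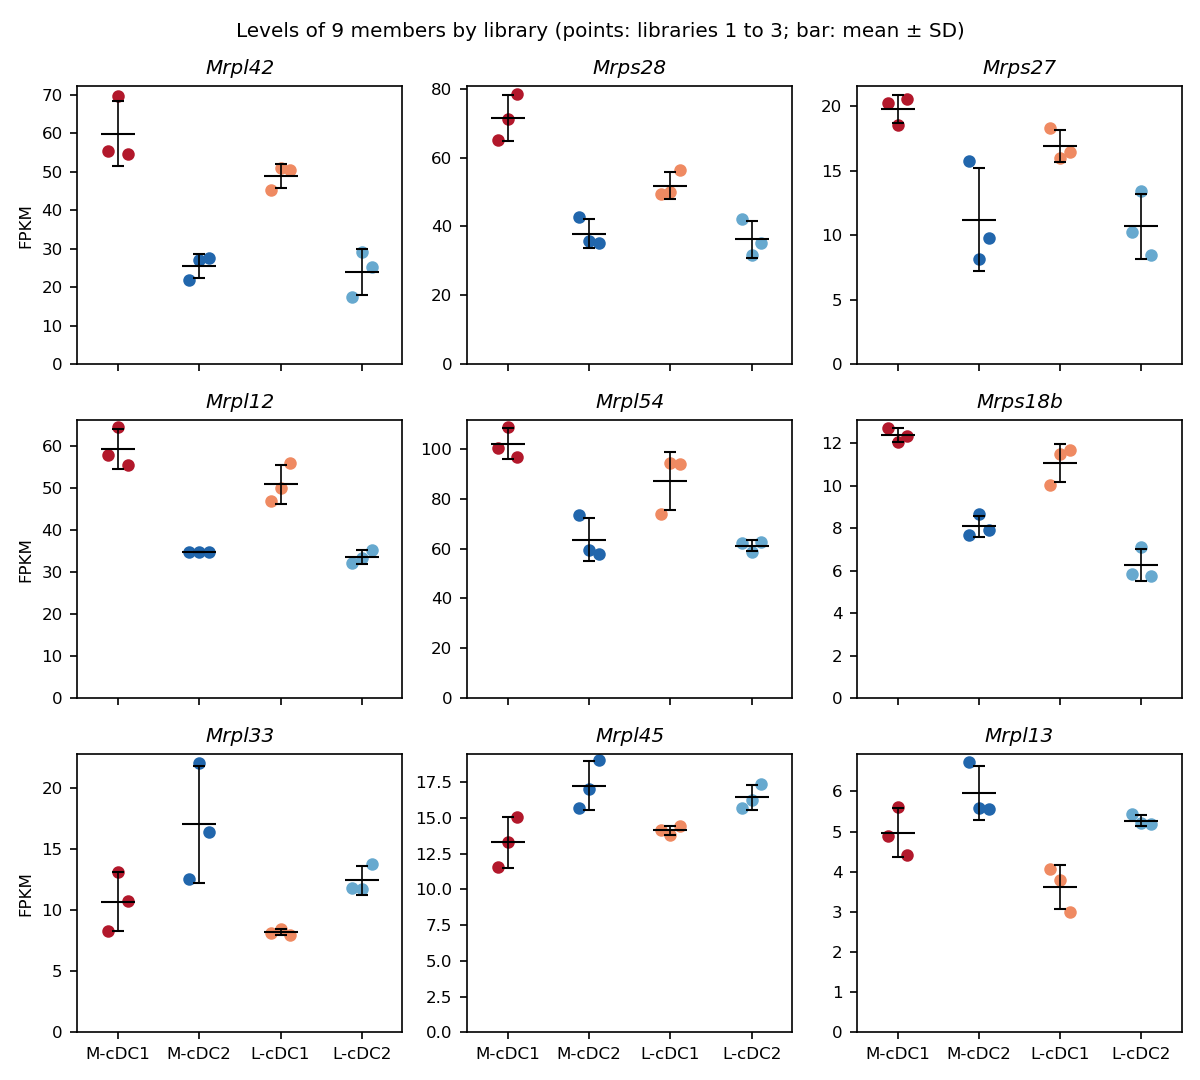
FPKM of 9 members in each library (points) with mean ± SD of 3 libraries (bars), by group, each axis starting at 0. The upper 6 members lie higher in cDC1 than in cDC2 in both M and L, and Mrpl33, Mrpl45 and Mrpl13 have lower means in cDC1.

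Among the other members with large differences, Mrps12, the counterpart of the bacterial decoding-site protein S12, rose by 0.73 ± 0.14 in M and 0.49 ± 0.14 in L, the latter not called without L-cDC2 replicate 1 (limma adjusted p = 0.0510). Mrpl22, whose bacterial counterpart lines the exit tunnel, rose by 0.72 ± 0.19 in M and 0.50 ± 0.19 in L. The Mrpl22 value in L rests on overlapping groups (48.1, 27.5 and 33.1 FPKM in L-cDC1 against 24.7, 31.3 and 19.3 in L-cDC2), and its call ended in 13 of 20 alternatives. Mrpl54 rose by 0.68 ± 0.12 in M and 0.50 ± 0.12 in L. Mrpl27 rose by 0.41 ± 0.15 in M and 0.52 ± 0.15 in L, and its call in M ended in 12 of 20 alternatives, and that in L without L-cDC2 replicate 1 or 2. Mrps21, the member with the highest level, differed less, at 0.34 ± 0.10 in M and 0.27 ± 0.10 in L, and its call in L ended in 11 of 20 alternatives.

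Calls were set side by side for M and L. A total of 15 members were called higher in both: Mrpl4, Mrpl12, Mrpl22, Mrpl27, Mrpl34, Mrpl42, Mrpl51, Mrpl54, Mrpl57, Mrps7, Mrps12, Mrps18b, Mrps21, Mrps27 and Mrps28. This is 65.2% of those called higher in M and 93.8% of those called higher in L. Another 8 were called higher in M alone and Mrpl2 in L alone, and no member was called in opposite directions. The difference kept its sign between M and L in 65 of 77 members, against 82.0% of all genes. Across members, Pearson's r between the differences in M and L was 0.78, against 0.89 across all genes, given as a description because genes of the same libraries are not independent. All 6 cDC1 libraries lay above all 6 cDC2 libraries for 15 members, a separation seen in 10.1% of all genes, and below for Mrpl45 and Mrps17, against 20.4% of all genes. In all 20 alternatives, 14 of the members called higher in M and 6 of those in L (Mrpl12, Mrpl42, Mrpl54, Mrpl57, Mrps18b and Mrps28) were called higher. No share of all genes is given beside these counts, so they are not read as particular to the members.

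**Figure D4:**
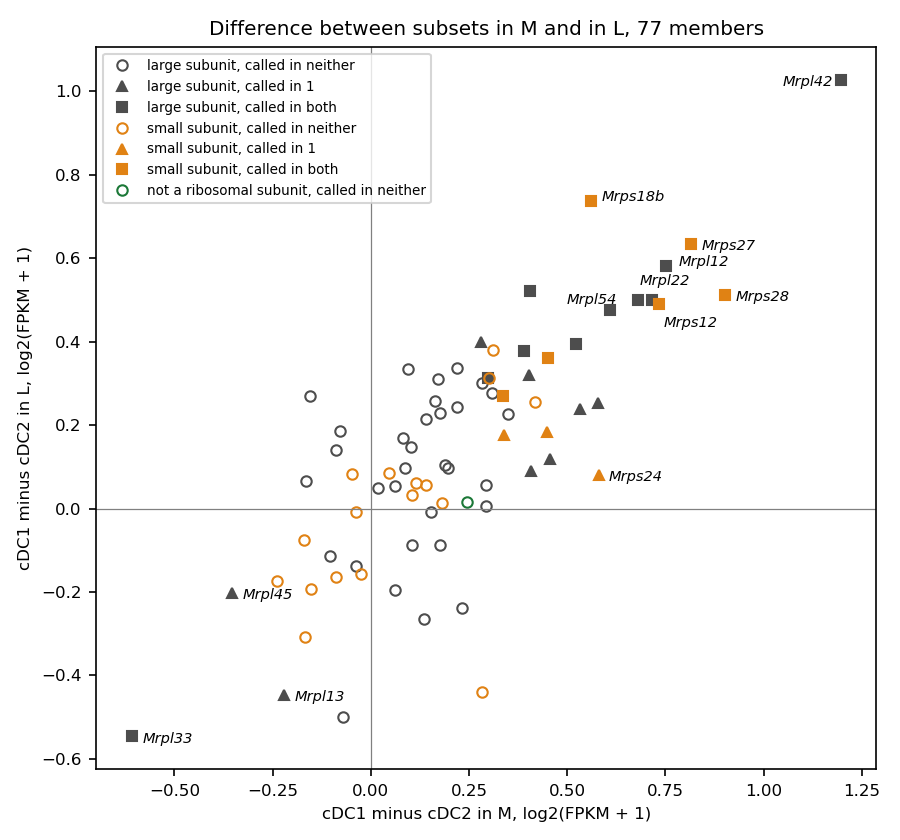
Log2 difference cDC1 minus cDC2 on the log2(FPKM + 1) scale in M (horizontal) and in L (vertical) for 77 members, coloured by subunit, with the symbol giving the number of comparisons in which the member was called. Mrpl42 lies farthest out at 1.2 and 1.03, and 65 members keep their sign.

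Both subunits and both evolutionary classes contained called members. In M, 14 of 50 large-subunit and 9 of 26 small-subunit members were called higher, with medians of 0.18 and 0.23. In L the counts were 10 and 6, with medians of 0.18 and 0.08. Of the members with a bacterial counterpart, 16 of 46 were called higher in M and 10 of 46 in L. Of the mitochondria-specific members, 7 of 30 were called higher in M and 6 of 30 in L. These shares were not tested against each other. Mrpl58, a mitochondria-specific large-subunit protein that can release stalled chains, was above cDC2 in every M-cDC1 and every L-cDC1 library of its own comparison but was not called, at 0.31 ± 0.13 in M and 0.28 ± 0.13 in L. Mrps36, which is not ribosomal, had a value of 0.24 ± 0.18 in M, 0.02 ± 0.18 in L, without a call.

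The members called lower in cDC1 were Mrpl33, Mrpl45 and Mrpl13, all of the large subunit. Mrpl33, the counterpart of the bacterial L33, was at 8.27, 13.1 and 10.8 FPKM in M-cDC1 and 12.6, 22.1 and 16.4 FPKM in M-cDC2, which overlap. In L it was at 8.12, 8.48 and 7.99 FPKM in cDC1 and 11.8, 11.8 and 13.8 FPKM in cDC2, which do not. Its log2 difference was -0.61 ± 0.19 in M (limma adjusted p = 0.0221) and -0.55 ± 0.19 in L (limma adjusted p = 0.0356). This is also the member whose deposited length is 15.3 times its longest coding transcript, so its level is the least comparable with those of other genes.

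Mrpl45, which lies near the tunnel exit and is known to anchor the mitoribosome to the inner membrane, was at 11.5, 13.3 and 15.1 FPKM in M-cDC1 and 15.7, 17.0 and 19.1 FPKM in M-cDC2. In L it was at 14.2, 13.8 and 14.4 FPKM in cDC1 and 15.7, 16.2 and 17.3 FPKM in cDC2. The groups were apart in both. The log2 difference was -0.35 ± 0.12 in M (limma adjusted p = 0.0367) and -0.20 ± 0.12 in L, where it was not called (limma adjusted p = 0.215). Mrpl13, the counterpart of the bacterial L13, was at 4.07, 3.79 and 3.0 FPKM in L-cDC1 and 5.43, 5.21 and 5.18 FPKM in L-cDC2, and differed by -0.45 ± 0.15 in L (limma adjusted p = 0.0314) and, not called, by -0.22 ± 0.15 in M. All 4 of these lower calls ended under median-of-ratios scaling, quantile normalization and limma-voom on recovered reads, so none held in all alternatives. In M, 0 members were called lower without M-cDC1 replicate 1 or without M-cDC2 replicate 2 or 3, and 1 without M-cDC1 replicate 2. In L, 0 were called lower without L-cDC1 replicate 3 or any one L-cDC2 replicate, and 1 without L-cDC1 replicate 2.

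The L and M groups were compared within each subset. In cDC1 the fit called 0 of 77 members (limma), where 0.394% of all genes were called, 0.354% higher and 0.0402% lower in L. An unadjusted p under 0.05 was found for 10 members, all lower in L, and for 10.3% of all genes. The smallest adjusted p was 0.172, for Mrps28. Its L-cDC1 libraries, at 49.4, 49.9 and 56.2 FPKM, lay below the M-cDC1 libraries, at 65.2, 71.1 and 78.4, a log2 difference of -0.45 ± 0.13. These groups did not overlap. In cDC1, 62 of 77 members had a negative sign, and 19.5% of members had a positive one, against 52.7% of all genes. The members' median was -0.13, against 0.02 for all genes. M-cDC1 replicate 2, in which members took 0.444% of reads against 0.401% and 0.400% in the other M-cDC1 libraries, bears on this. Without it the median was -0.09 and 2 members had an unadjusted p under 0.05, and 6 had one without L-cDC1 replicate 2 or without replicate 3. The groups did not overlap, with L lower, for 17 members (5.63% of all genes), among them Mrps14 and Mrpl54, and with L higher for Mrpl48 alone (8.28% of all genes). In this comparison, cytosolic ribosomal proteins had a median of -0.34 with 0 of 80 signs positive. Respiratory chain and ATP synthase subunits had -0.26 with 2 of 80, and import genes -0.12 with 7 of 33. Assembly factors, synthetases, transcription genes, chaperones with proteases, and regulators had medians from 0.01 to 0.12. Lower values in L were thus not particular to the members. The median over members was -0.17 after median-of-ratios scaling, -0.14 after quantile normalization and -0.15 with limma-voom. As given above, B cell and T and NK cell markers summed to higher levels in L than in M, and their part in this was not tested.

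In cDC2 the fit called 0 of 77 members (limma), where 1.83% of all genes were called, 1.04% higher and 0.788% lower in L. An unadjusted p under 0.05 was found for 4 members, all lower in L, and for 10.2% of all genes. That number was 1 without L-cDC2 replicate 1 or without M-cDC2 replicate 2. The median was -0.04, against 0.03 for all genes, and 45 of 77 signs were negative. A positive sign was found for 41.6% of members and 54.8% of all genes. The groups did not overlap, with L lower, for 6 members (6.92% of all genes) and, with L higher, for Mrps24 (9.96% of all genes). Monocyte and macrophage markers also summed to less in L-cDC2 than in M-cDC2, as given above, and B cell and T and NK cell markers to more, and their part was not tested. The interaction, which asks whether the L minus M difference depends on the subset, called 0 of 77 members (limma), where 0.298% of all genes were called, 0.193% positive and 0.105% negative. An unadjusted p under 0.05 was found for 3 members, all negative, and for 8.53% of all genes, and for 1 member without L-cDC2 replicate 3 or without M-cDC2 replicate 2. Its smallest adjusted p was 0.348, for Mrps24, the counterpart of the bacterial S3 protein. Mrps24 in cDC1 was at 41.2, 45.1 and 39.7 FPKM in the L libraries and 45.0, 53.9 and 54.8 in the M libraries. In cDC2 it was at 39.4, 40.3 and 39.0 FPKM in L and 32.1, 31.2 and 38.5 in M. In cDC1 the L libraries lay low and overlapped M, in cDC2 they lay above M without overlap, and the interaction was -0.50 ± 0.16. Counts of calls that differ between M and L above are therefore not shown to differ by the interaction test.

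Of the other parts of mitochondrial gene expression, counts over fixed gene lists follow, to be read beside the 12.7% of all genes called higher and 25.4% lower in M, and 12.9% and 26.6% in L. The 5 mitoribosomal proteins that go by other names (Dap3, Ptcd3, Aurkaip1, Chchd1 and Gadd45gip1) had 0 members called in either comparison (limma), with Gadd45gip1 in M the 1 unadjusted p under 0.05. Their log2 differences in M ran from -0.01 for Dap3, a GTP-binding protein of the small subunit, and Ptcd3 to 0.38 ± 0.16 for Gadd45gip1 of the large subunit. Translation factors gave 0 of 17 higher and 1 lower in M and the same counts in L. The one in M was the initiation factor gene Mtif2 at -0.63 ± 0.18. The elongation factor gene Tufm was not called (0.16 ± 0.14). Assembly and rRNA modification factors gave 1 of 29 higher and 4 lower in M, and 1 higher and 6 lower in L. The rRNA methyltransferase gene Nsun4 fell by 0.77 ± 0.24 in M and 0.73 ± 0.24 in L. Mitochondrial aminoacyl-tRNA synthetases gave 1 of 22 higher and 1 lower in M, and 1 higher and 3 lower in L.

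Genes of mitochondrial transcription and RNA processing gave 3 of 24 higher and 1 lower in M, and 4 higher and 3 lower in L, led by Elac2, which cuts the 3′ ends of mitochondrial tRNAs, at 1.38 ± 0.15 in M and 1.61 ± 0.15 in L. Tfam, which packages mitochondrial DNA and takes part in its transcription, was lower in cDC1 in L (-1.02 ± 0.15, limma adjusted p = 9.68e-05). Import genes gave 6 of 33 higher and 2 lower in M, and 2 higher and 3 lower in L, with Timm23, the channel of the inner membrane, at 0.76 ± 0.12 in M and 0.51 ± 0.12 in L. Chaperones and proteases gave 5 of 15 higher and 2 lower in M, and 5 higher and 1 lower in L, with the Hsp90 family member Trap1 at 1.23 ± 0.16 in M and 1.03 ± 0.16 in L. Respiratory chain and ATP synthase subunits gave 35 of 80 higher and 1 lower in M, and 19 higher and 1 lower in L. Cytosolic ribosomal proteins gave 58 of 80 higher and 0 lower in M, and 24 higher and 1 lower in L.

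Genes for regulators of nuclear-encoded mitochondrial genes followed. In M, 0 of 15 were called higher and 8 lower in cDC1, with a median of -0.59, and in L 0 were called higher and 4 lower, with a median of -0.35. The count in L is close to the 26.6% of all genes called lower there, and that in M stands beside 25.4%. Nrf1, the factor of the NRF1 core above, was lower in cDC1, at -0.67 ± 0.16 in M (5.89 ± 1.47 FPKM against 9.82 ± 0.733, SD, n = 3) and -0.65 ± 0.16 in L. Gabpb1, a subunit of the ETS factor GABP, was lower at -0.97 ± 0.21 in M. Yy1 was not called in either, at -0.36 ± 0.18 in M and -0.49 ± 0.18 in L. Members with and without the letters of these factors were then compared as a description. Of the 25 tested members with ETS letters in a window, 10 were called higher in M and 9 in L, and of the 43 tested members with a window but no ETS letters, 10 and 4. Of the 21 tested members with the NRF1 core, 5 were called higher in M and 4 in L, and of the 47 without, 15 and 9. Of the 3 with the longer NRF1 site, 0 were called higher in M and 0 in L. Of the 12 with YY1 letters, 5 were called higher in M and 4 in L, and of the 56 without, 15 and 9. These shares were not tested.

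Many of these genes start beside another gene. A protein-coding gene on the opposite strand started head to head within 1000 bases of 32 of the 77 tested members (41.6%), compared with 17.9% of protein-coding genes tested, by the coordinates in the deposited table. The starts lay apart in 18 of these and overlapped in 14. Of 29 neighbours tested in M, 4 were called higher and 5 lower, with a median of -0.03, while the members beside them had a median of 0.28. Of all genes in M, 12.7% were called higher and 25.4% lower, with a median of -0.18. In L, 1 of 29 neighbours was called higher and 7 lower, beside 12.9% and 26.6% of all genes. The neighbours' shares were not tested against those of all genes. Mrps27 and its neighbour Ptcd2, 81 bases away and known as a factor of mitochondrial RNA, were both higher, with Ptcd2 at 0.90 in M and 0.83 in L. Mrpl51 went the other way from the condensin gene Ncapd2, 100 bases away, at 0.52 against -0.64 in M and 0.39 against -1.19 in L. Mrpl46 and Mrps11 start head to head with each other and neither was called. Pearson's r between member and neighbour was 0.14 in M and 0.13 in L over 29 points, given as a description, since Mrpl46 and Mrps11 enter as each other's neighbour and overlapping starts share reads of uncertain strand.

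**Figure D5:**
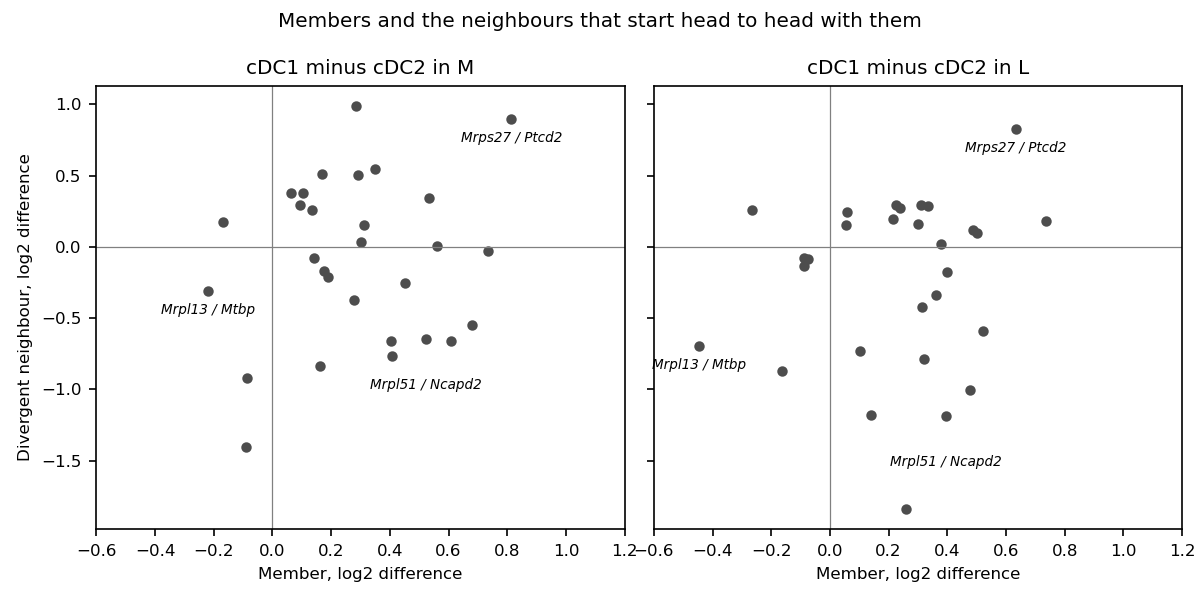
Log2 difference cDC1 minus cDC2 of members (horizontal) and of the neighbours that start head to head with them (vertical), in M and in L, on the log2(FPKM + 1) scale, 29 points each. Mrps27 and Ptcd2 are high together, while Mrpl51 and Ncapd2 lie on opposite sides of 0.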

How the data were processed

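The authors' deposited table is labelled as FPKM. SMART-Seq HT cDNA and Nextera XT libraries were used, per the labels' protocols. STAR 2.7.9a and featureCounts 2.0.1 stand in the submitters' processing notes, along with cutadapt 3.7, Trimmomatic 0.39, Trim Galore 0.6.7, DESeq2 1.20.0 (none with a stated role) and the human build GRCh38, though symbols are of the mouse. The build of the coordinates is not given in the sources used here. Read counts could be recovered from FPKM and length, coming out whole within 0.01 read for 100% of values.

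From these values, log2(FPKM + 1) was fitted with limma 3.58.1 (R 4.3.3) with an intensity trend and 1 mean per group over all 12 libraries, with 8 residual degrees of freedom, for the 12434 genes that reached 1 FPKM in 3 or more libraries. P-values were adjusted by Benjamini-Hochberg over all genes tested, and adjusted p under 0.05 is called. A log2 difference on this scale understates the change of low genes. The errors of log2 differences are SE. Sequences are from RefSeq, GRCm38.p6. Named members were the 6 called with the largest difference in each direction in each subset comparison, the 3 highest and lowest levels, those not tested, and members named for known roles. Any other member was picked with its values in view. The members and lists were chosen with earlier results of these data known. Alternatives were 2 other pseudocounts, no filter or 5 FPKM, median-of-ratios and quantile scaling, limma-voom on recovered reads, a replicate block and leaving out each library.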

Additional observations from a re-analysis of the deposited data

How the results depend on the processing

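Members called higher in cDC1 in M numbered 15 to 23 when each library was left out in turn, against 23 in the fit of all libraries, and in L 8 to 15, against 16. Those called lower numbered 0 to 2 in M and 0 to 3 in L. Without a filter on low values, which tests more genes, 18 members were called higher and 1 lower in M, and 10 higher and 2 lower in L. Of all genes in that fit, 4.81% were called higher and 9.56% lower in M, and 5.13% and 10.6% in L. After median-of-ratios scaling, which moves the median of all genes to near 0, 29 members were called higher in L and 0 lower in M or L, after quantile normalization 25 and 0, and with limma-voom on recovered reads 28 and 0; the cause was not tested. Members whose groups do not overlap with cDC1 higher numbered 44 in M and 37 in L after median-of-ratios scaling, where all genes gave 23.3% and 22.5%. In L minus M and in the interaction, 0 members were called under every alternative run. With the replicate block, 23 members were called higher and 2 lower in M, and 15 and 3 in L. Of all genes, that fit called 12.7% higher and 25.5% lower in M, and 13.0% and 26.8% in L. Same-numbered libraries correlated in their deviations at -0.0101 to 0.156 and others at -0.153 to 0.0885. These ranges overlap, with that of the same-numbered libraries lying higher. Whether the numbers pair the samples cannot be told from them.

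Members with a negative sign numbered 18 in M and 20 in L as deposited, 4 and 10 after median-of-ratios scaling, 5 and 10 after quantile normalization, and 5 and 9 with limma-voom. Among the named members, these signs reversed, none of them called in that comparison. Mrps18c became 0.11 in M and 0.027 in L after median-of-ratios scaling, 0.014 in M after quantile normalization, and 0.085 in M and 0.032 in L with limma-voom. Mrpl13 became 0.065 in M after quantile normalization. Leaving out 1 library gave Mrpl10 in L values of -0.037 to 0.27, Mrps18a in M -0.035 to 0.18 and Mrps36 in L -0.11 to 0.085. The number of reads behind Mrpl53 limits any statement on it. The floor given for it covers counting error only.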
